A study of Homo sapiens with 4 samples.

Results

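The numbered zinc finger genes of chromosome 19 are the protein-coding genes whose symbol is ZNF followed by a number, with at most 1 trailing letter, and whose position is on chromosome 19 of GRCh38. The annotation holds 247 of them, the counts table of 20515 rows holds 237, and 235 had enough counts to be tested. ZNF443 and ZNF677 were in the table with too few counts for a test. ZNF560, ZNF208, ZNF257, ZNF723, ZNF728, ZNF536, ZNF404, ZNF534, ZNF471 and ZNF835 were absent from the deposited counts. The rule uses only name and position, though it was chosen with earlier results of these data known.

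Most genes of this kind code for proteins that read DNA through a row of zinc fingers of the Cys2-His2 type, and many also carry a KRAB domain at the amino end. The KRAB domain recruits TRIM28 (KAP1), which in turn brings in the histone methyltransferase SETDB1 and heterochromatin proteins, so that the bound site is silenced. Many of these proteins bind transposable elements, and the genes lie in tandem clusters that grew by repeated duplication in the primate and mammalian lineages.

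The RNA came from T47D, a luminal breast carcinoma cell line that is established and human, and its poly(A) fraction was sequenced. One group of 2 libraries came from cells with no treatment (control 1 and 2) and the other of 2 libraries from cells treated with baicalein, a plant flavonoid (baicalein 1 and 2). The dose, the time and the vehicle were not stated in any source used here. The labels leave unsaid whether the 2 libraries of a group are separate cultures, and p-values therefore reflect only how these samples vary, which may be technical. In bulk RNA, fewer cells that express a gene and less of its RNA per cell cannot be told apart.

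Total counts ranged from 38597207 to 56732569 per library, so that a level of 1 CPM (counts scaled to the library's total and its TMM factor) stood for 37.2 to 54.7 counts. The luminal markers EPCAM, KRT8, KRT18, KRT19, GATA3, FOXA1, ESR1 and PGR were all detected in every library. All of them but EPCAM were lower with baicalein, from 910.8 to 109.5 CPM for PGR, 177.2 to 38.5 for ESR1, 1098 to 392.9 for GATA3 and 5165 to 2224 for KRT8 (group means), with log2 fold changes of -0.91 for KRT19, -0.59 for FOXA1 and -0.47 for KRT18. Of the markers of other cells, the fibroblast collagen gene COL1A1 was at 90.03 and 100.4 CPM in control and 149.9 and 139.9 CPM in baicalein. The leukocyte gene PTPRC was at 0 counts in both controls and at 5 and 6 counts with baicalein. The other 7 were absent from the deposited counts: COL3A1, PDGFRB and DCN of fibroblasts, CD3E and CD14 of immune cells, and PECAM1 and VWF of endothelial cells. The part of these marker changes in the results was not tested. Levels below are CPM in control 1, control 2, baicalein 1 and baicalein 2, and a log2 fold change is baicalein over control with its standard error (SE).

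The genes were set into clusters by their spacing: a gap of over 1 Mb between neighbouring starts ended a cluster, and a cluster needed at least 5 genes. This gave 9 clusters with 236 of the 247 annotated genes, numbered from the short-arm end of the chromosome, and 11 scattered genes. Cluster 4, which runs from position 19668796 (ZNF101) to 24129961 (ZNF254) in the pericentromeric part of the short arm, was the one in which most genes were lower with baicalein. It is the cluster that holds ZNF91 and ZNF93, known for the repression of SVA and LINE-1 retrotransposons.

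The sequence just before the start of transcription was alike among genes of cluster 4, and it is shown for 12 of them because the change in expression is described against it below. The 100 bases before the RefSeq start (GRCh38.p14) are given 5′ to 3′ in the direction of the gene. Capitals mark CCAATCAG (a CCAAT box, the motif of NF-Y), CTTCCGG (the core of ETS-type sites on the other strand) and TTTGGCG (a 7-base run that starts the E2F consensus TTTGGCGC). The first 6 genes hold TTTGGCG; their expression was lower with baicalein in 5, and ZNF486 did not pass the test. The other 6 do not hold it: ZNF91, ZNF493, ZNF254 and ZNF737 were higher, and ZNF43 and ZNF85 were lower. The 12 genes were picked with these values known and are no sample of the cluster, in which 8 of the 15 tested genes without TTTGGCG were lower and 4 higher.
ZNF66: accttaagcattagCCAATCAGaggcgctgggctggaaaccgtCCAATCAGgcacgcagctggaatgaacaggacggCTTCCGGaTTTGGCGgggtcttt
ZNF93: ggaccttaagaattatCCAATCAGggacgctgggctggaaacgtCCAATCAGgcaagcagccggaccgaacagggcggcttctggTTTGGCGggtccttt
ZNF724: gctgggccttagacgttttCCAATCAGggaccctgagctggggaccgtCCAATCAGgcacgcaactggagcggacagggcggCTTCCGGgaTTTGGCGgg
ZNF726: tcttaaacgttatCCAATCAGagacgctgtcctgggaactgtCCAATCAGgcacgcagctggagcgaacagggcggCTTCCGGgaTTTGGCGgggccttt
ZNF430: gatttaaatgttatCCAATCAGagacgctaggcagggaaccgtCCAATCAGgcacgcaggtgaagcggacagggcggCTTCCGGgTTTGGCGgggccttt
ZNF486: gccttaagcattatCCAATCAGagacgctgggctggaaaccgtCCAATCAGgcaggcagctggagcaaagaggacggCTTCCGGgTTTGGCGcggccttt
ZNF91: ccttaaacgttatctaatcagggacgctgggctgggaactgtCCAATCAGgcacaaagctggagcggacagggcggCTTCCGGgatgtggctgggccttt
ZNF493: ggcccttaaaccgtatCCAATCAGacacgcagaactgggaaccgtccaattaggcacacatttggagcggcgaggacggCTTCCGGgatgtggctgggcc
ZNF254: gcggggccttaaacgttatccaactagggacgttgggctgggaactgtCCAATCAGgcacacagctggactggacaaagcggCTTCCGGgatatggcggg
ZNF737: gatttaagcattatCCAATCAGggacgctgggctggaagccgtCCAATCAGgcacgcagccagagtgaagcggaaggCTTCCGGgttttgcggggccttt
ZNF43: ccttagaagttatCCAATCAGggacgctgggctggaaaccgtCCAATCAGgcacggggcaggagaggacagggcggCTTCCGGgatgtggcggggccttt
ZNF85: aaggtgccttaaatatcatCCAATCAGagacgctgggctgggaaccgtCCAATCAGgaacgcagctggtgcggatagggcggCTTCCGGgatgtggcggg
The windows are ZNF66 chr19:20776204-20776303 (plus strand), ZNF93 chr19:19900846-19900945 (plus strand), ZNF724 chr19:23250395-23250494 (minus strand), ZNF726 chr19:23914786-23914885 (plus strand), ZNF430 chr19:21020557-21020656 (plus strand), ZNF486 chr19:20167114-20167213 (plus strand), ZNF91 chr19:23395472-23395571 (minus strand), ZNF493 chr19:21397033-21397132 (plus strand), ZNF254 chr19:24087087-24087186 (plus strand), ZNF737 chr19:20565782-20565881 (minus strand), ZNF43 chr19:21836183-21836282 (minus strand), ZNF85 chr19:20923151-20923250 (plus strand).

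Across all clusters, 111 of the 235 tested genes were higher with baicalein, 63 were lower and 61 did not pass, in edgeR's quasi-likelihood test with a Benjamini-Hochberg adjusted p under 0.05 over all genes of the table. Of the 18369 genes tested in all, 37.4% were higher and 37.6% lower, against 47.2% and 26.8% of the zinc finger genes. Their median log2 fold change was 0.17 (quartiles -0.30 and 0.57), and the median over all tested genes was 0.00171. Of the 111 rises 53 were under 1.5-fold, and of the 63 falls 30. At least 2-fold, 17 were higher and 21 lower, which is 17 and 21 of 235 against 12.2% and 15.2% of all tested genes. Summed over the genes, their RNA made up 2657 and 2603 CPM in control and 3120 and 3128 CPM in baicalein, so the baicalein libraries lay above both controls.

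The 237 tested genes of the same naming on other chromosomes gave 128 higher and 57 lower, with a median log2 fold change of 0.24. The other 751 tested protein-coding genes of chromosome 19 outside the cluster spans went the other way, with 189 higher and 404 lower and a median of -0.26. Inside the spans, 91 other protein-coding genes gave 33 higher and 37 lower (median -0.02), and the number higher was 20 without baicalein 1. With library totals in place of TMM factors their split was 22 higher and 40 lower, and with a correction for GC content and length 40 higher and 32 lower. None of these differences between groups of genes was tested.

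**Figure D1:**
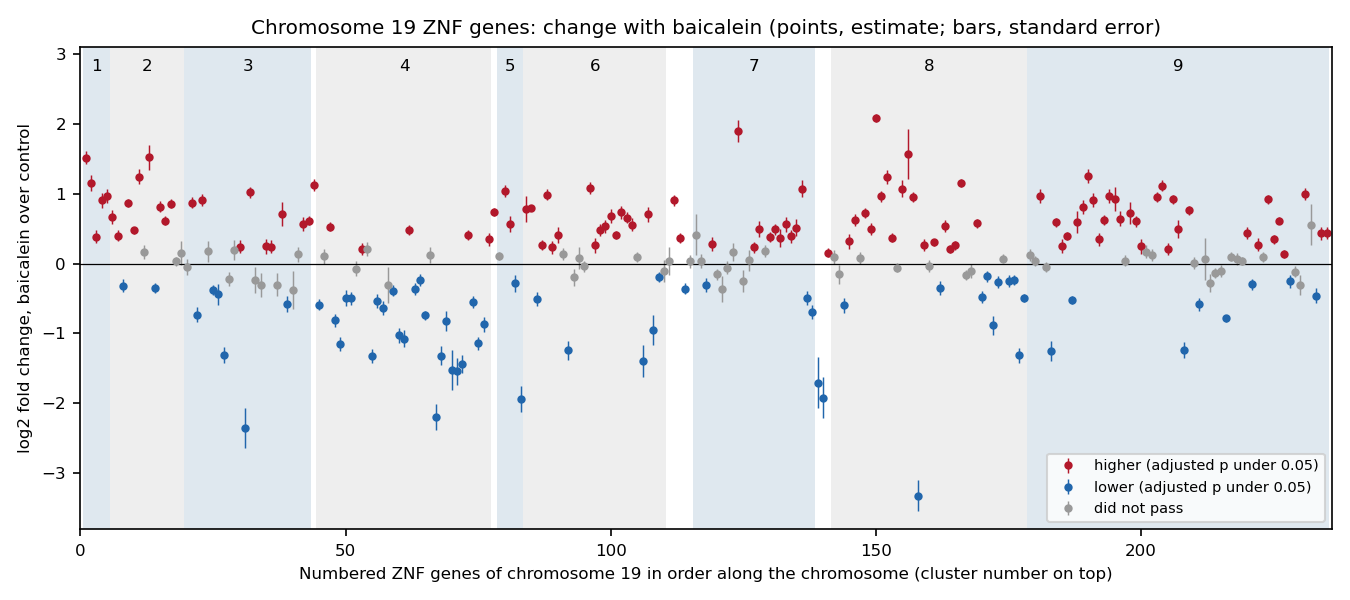
Log2 fold change (baicalein over control, vertical axis) of each tested numbered zinc finger gene of chromosome 19, in order along the chromosome (horizontal axis, rank), with its standard error as a bar and the 9 clusters as shaded bands. Red genes are higher, blue genes lower and grey genes did not pass; in cluster 4 most points, 23 of 33, are blue, and ZNF578 of cluster 8 is the lowest point at -3.32.

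Cluster 4 had 23 of 33 tested genes lower and 5 higher, with a median log2 fold change of -0.54 (quartiles -1.07 and -0.08). Lower genes made up 69.7% of the cluster, against 37.6% of all tested genes, and 10 of them fell at least 2-fold. The number higher was 3 without baicalein 1, while the number lower was 22 or 23 in every alternative run. Outside cluster 4, 106 of 202 tested genes were higher (52.5%), 40 were lower (19.8%), and the median was 0.24. Cluster 4 thus held 36.5% of all the falls among the zinc finger genes. Its summed level was 347 and 322 CPM in control and 266 and 270 CPM in baicalein, a ratio of 0.801, with the groups apart. In the other 8 clusters the ratio of summed levels lay between 1.15 and 1.90. The difference between clusters was not tested.

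**Figure D2:**
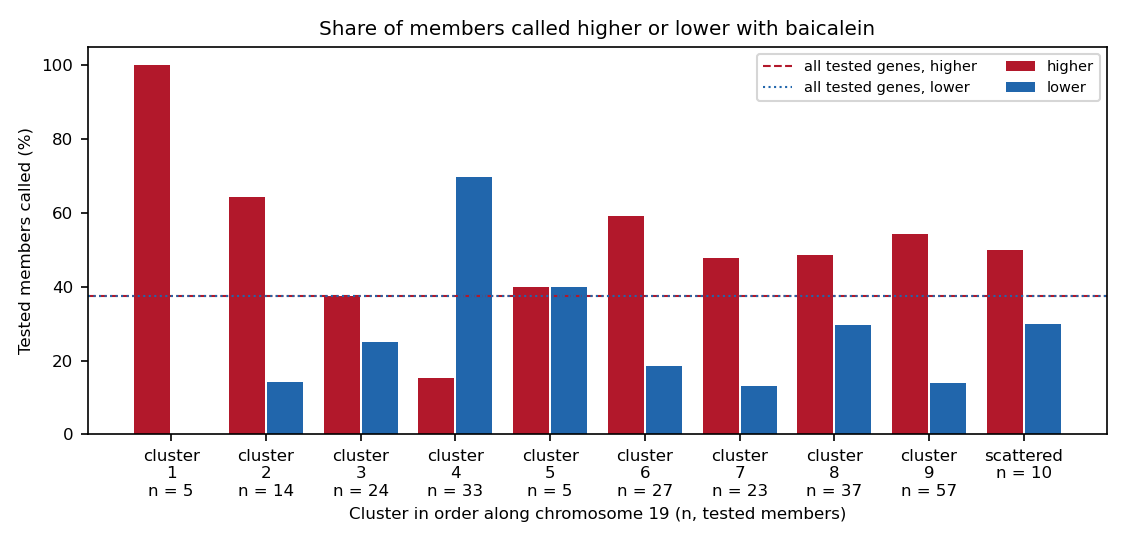
Percentage of tested genes called higher (red) and lower (blue) with baicalein in each cluster and among the scattered genes, with the number of tested genes below; dashed and dotted lines give the shares over all tested genes, 37.4% and 37.6%. The bar for lower is the taller one in cluster 4 only (69.7% against 15.2%), and in cluster 5 both stand at 40.0%.

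Within cluster 4 the falls covered the whole span. The retrotransposon repressor gene ZNF93 (ENSG00000184635, chr19:19900913-19963464) was at 9.72 and 9.08 CPM in control and 4.41 and 4.03 CPM in baicalein, and its log2 fold change was -1.15 (SE 0.10; adjusted p = 7.69e-10). ZNF91 (ENSG00000167232, chr19:23304991-23395560) went the other way, with 20.6 and 17.97 CPM in control and 24.7 and 26.6 CPM in baicalein, and the log2 fold change was 0.41 (SE 0.07; adjusted p = 2.25e-05). Both pairs of libraries were apart, as in all 174 called zinc finger genes and in 86.9% of all tested genes. The genes known for L1 and SVA repression thus differed in direction.

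ZNF729 (ENSG00000196350, chr19:22286408-22317176) had the largest fall of the cluster, from 3.54 and 3.38 CPM to 0.731 and 0.779 CPM, 4.59-fold lower (log2 fold change -2.20, SE 0.18). It opens a run of 6 tested genes called lower, ZNF729, ZNF98, ZNF492, ZNF99, ZNF730 and ZNF724, with log2 fold changes of -0.82 to -2.20. ZNF723 and ZNF728, absent from the deposited counts, lie between ZNF99 and ZNF730. ZNF730 went from 3.03 and 2.53 CPM to 0.859 and 1.07 CPM, and ZNF724 from 6.48 and 5.61 CPM to 2.16 and 2.31 CPM. ZNF98 went from 4.93 and 4.85 CPM to 1.92 and 2.01 CPM. ZNF730 and ZNF724 each share exon sequence with another gene model on their own strand. In each of these genes both baicalein libraries lay below both controls, as in every zinc finger gene called lower.

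Farther towards the short-arm end, ZNF66 went from 8.997 and 8.74 CPM to 3.47 and 3.62 CPM, a log2 fold change of -1.32 (SE 0.10). ZNF43, a KRAB zinc finger gene, went from 25.8 and 23.9 CPM to 14.9 CPM in both baicalein libraries, and ZNF85 from 8.85 and 7.93 CPM to 5.89 and 5.67 CPM. Their log2 fold changes were -0.74 and -0.54. On the centromere side of the run, ZNF681, named after its values were seen, went from 14.7 and 13.1 CPM to 6.27 and 6.34 CPM.

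The 5 rises of cluster 4 were ZNF506 (0.53), ZNF493 (0.48), ZNF91 (0.41), ZNF254 (0.35) and ZNF737 (0.21), given as log2 fold changes; ZNF493, ZNF254 and ZNF737 were named after their values were seen. ZNF506 went from 19.7 and 18.8 CPM to 27.4 and 28.1 CPM. These genes did not sit together: the tested genes on either side of each were lower or did not pass. ZNF14, ZNF486, ZNF626, ZNF714 and ZNF676 did not pass, with log2 fold changes of -0.30 to 0.21.

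**Figure D3:**
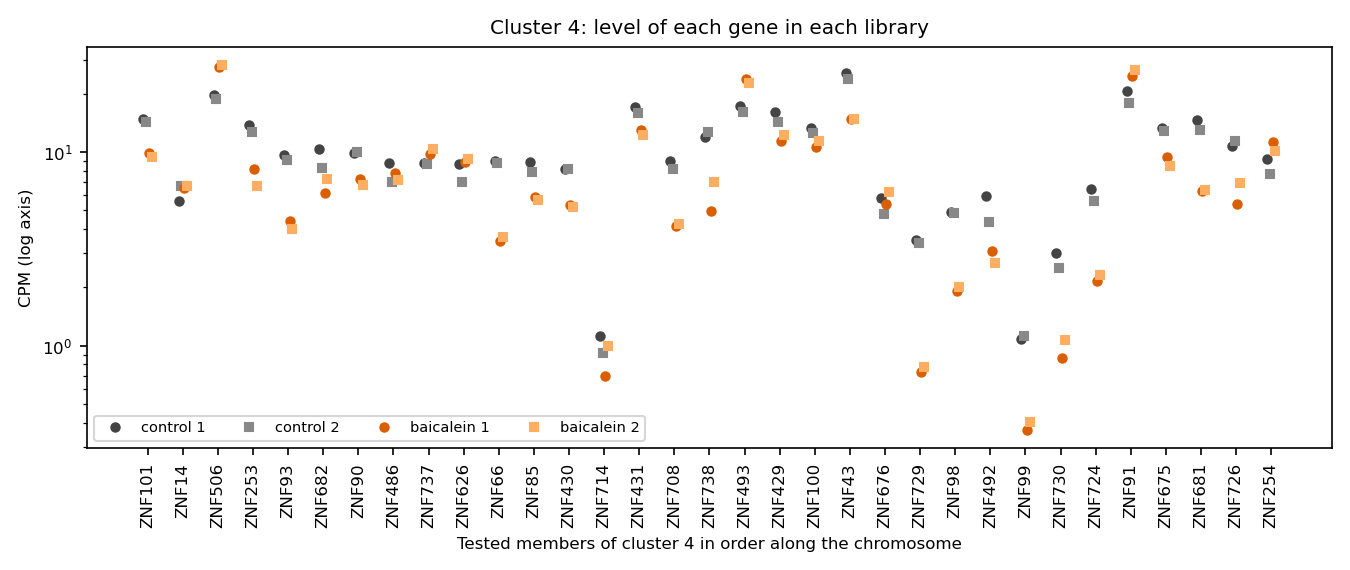
Level in CPM (log axis) of each tested gene of cluster 4 in each of the 4 libraries, in order along the chromosome; dark circles and grey squares are controls, orange symbols are baicalein libraries. The orange symbols lie below the grey ones for most genes, ZNF729 falling from 3.54 and 3.38 to 0.731 and 0.779 CPM, and above them for ZNF506, ZNF493 and ZNF91.

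Duplicated genes share sequence, so reads of one can be counted for another. The share of a gene's 50-base transcript words that also occur in another gene had a median of 2.63% over the tested zinc finger genes, and 47 of the 235 were above 10%. In cluster 4 the share was 48.3% for ZNF724 (43.6% with 1 other gene model), 41.0% for ZNF98 and 33.3% for ZNF492, so the values of these genes are uncertain. Among the 29 tested genes of cluster 4 at or below 10%, 19 were lower and 5 higher, with a median log2 fold change of -0.54. Among the 17 with no exon overlap with another gene, 13 were lower and 1 higher (median -0.63). Over all 235, 75 had an exon overlap with a gene on the other strand and 79 with a gene on their own. The 75 include ZNF699, ZNF146, ZNF333 and ZNF578.

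The transcripts of cluster 4 are low in GC, with a median of 37.5% against 42.4% over all the zinc finger genes tested and 49.0% over tested protein-coding genes. Among genes under 42% GC, 22 of 31 in cluster 4 were lower and 4 higher, and outside it 13 of 78 were lower and 45 higher. The medians were -0.54 and 0.26. Of the other protein-coding genes under 42% GC, 33.1% were lower and 49.3% higher. With the correction for GC content and length, cluster 4 had 23 lower and 4 higher. The part of GC in the falls of cluster 4 was not tested.

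RefSeq promoter windows of 300 bases (250 before to 50 after the start) were matched for 216 of the 247 annotated genes by symbol, 29 of them in cluster 4. CCAATCAG, searched on both strands like every motif here, occurred in 29 of 29 windows of cluster 4, in 21 of 24 of cluster 3 and in 4 of 5 of cluster 1, against 4.19% of 27305 promoters in the table. Within the 100 bases printed above, 14 of the 29 windows held it more than once. CTTCCGG was in 72.4% of the windows of cluster 4, 75% of cluster 5, 62.5% of cluster 8 and 61.1% of cluster 9. It was in 40.6% of the windows of all zinc finger genes outside cluster 4, and in 8.33% of those of cluster 3. The share was 33.3% for numbered zinc finger genes of other chromosomes, 14.3% for protein-coding promoters and 10.6% for all promoters. Cluster 3, which shares the CCAATCAG run, had 9 genes higher and 6 lower. That split was 6 and 9 with library totals and 7 and 9 with the correction for GC content and length.

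TTTGGCG was in 13 of 29 windows of cluster 4 (44.8%), in 4.81% of the windows of the other zinc finger genes and in 1.93% of all promoters. The 11 tested genes of cluster 4 with it gave 10 lower and 0 higher, with a median log2 fold change of -0.87. These were ZNF93, ZNF90, ZNF66, ZNF430, ZNF708, ZNF100, ZNF730, ZNF724, ZNF675 and ZNF726, and ZNF486 at -0.08 did not pass. The 15 tested genes of the cluster without it gave 8 lower and 4 higher, with a median of -0.37. No promoter was matched for the other 7 tested genes. Of these, ZNF729, ZNF98, ZNF99, ZNF253 and ZNF738 were lower, ZNF506 was higher and ZNF676 did not pass.

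Among zinc finger genes outside cluster 4, the 9 with TTTGGCG gave 3 higher and 2 lower (median 0.04), and the 171 without it 95 higher and 32 lower (median 0.27). Over the other tested protein-coding genes, 51.3% of the 306 with TTTGGCG were lower and 30.4% higher, against 41.9% and 39.9% of the 10602 without it. This motif, CCAATCAG, CTTCCGG and CTACANTTC were picked after the promoters had been read beside the fold changes, so the splits are descriptions with no test. CTACANTTC was in 10 of the 20 windows of cluster 7, 7 of the 25 of cluster 6, none of the 29 of cluster 4 and 1.45% of all promoters. A match is a run of letters and not a measured binding site.

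The longer E2F runs TTTGGCGC or TTTCCCGC, the first of which holds TTTGGCG, were in 20.7% of the windows of cluster 4, 5.56% of those of all the zinc finger genes and 2.31% of all promoters. Genes of cluster 4 with such a run gave 4 lower and 0 higher of 5, and those without it 14 lower and 4 higher of 21. Of the other protein-coding genes, 51.8% of the 390 with it were lower and 41.8% of the 10518 without it. GCGTG, the core of the dioxin response element, was in 50.5% of the zinc finger windows and 36.4% of all promoters. Its share was 44.3% of protein-coding promoters and 54.5% of those of numbered zinc finger genes on other chromosomes. Genes with it gave 53 higher and 26 lower of 106, and genes without it 49 and 26 of 100. TGACNNNGC, the antioxidant response element, was in 14.4% against 13.6% of all promoters. Genes with it gave 12 higher and 11 lower of 28, and genes without it 90 and 41 of 178.

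**Figure D4:**
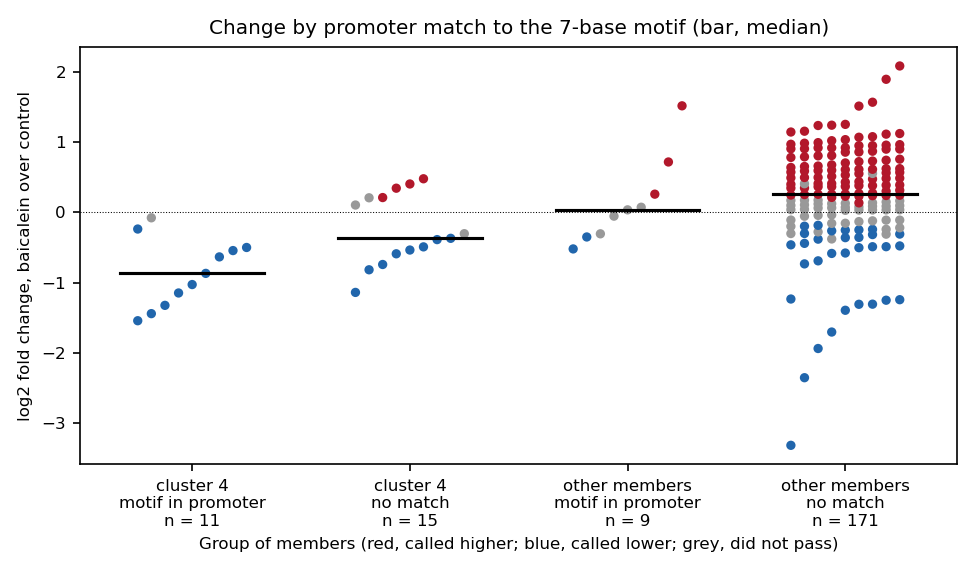
Log2 fold change (baicalein over control, vertical axis) of single zinc finger genes in cluster 4 and of all others, scattered genes included. Each set is split by whether the 300-base promoter window holds the 7-base motif described in the text. Bars are medians, and points are red (higher), blue (lower) or grey (did not pass). The 11 genes of cluster 4 with the motif lie at or below -0.08, with a median of -0.87, and the other groups have medians of -0.37, 0.04 and 0.27.

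Cluster 1, with 5 genes at 2819874 to 2944971, was the only one of the 9 clusters in which all tested genes rose. ZNF554 went from 4.91 and 4.47 CPM to 13.4 and 13.5 CPM (log2 fold change 1.52, SE 0.09), and ZNF555 from 3.94 and 3.23 CPM to 8.19 and 7.65 CPM. The smallest rise was that of ZNF556, from 8.79 and 10.8 CPM to 12.8 CPM in both, a log2 fold change of 0.38. ZNF57 and ZNF77, the other members, had log2 fold changes of 0.90 and 0.97.

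In cluster 2 (7069444 to 9793180), 9 of 14 tested genes were higher and 2 lower, with a median of 0.55. ZNF699 went from 3.51 and 3.32 CPM to 7.75 and 8.51 CPM. ZNF177, a gene known for promoter methylation in tumours, was at 1.016 and 0.9996 CPM in control and 2.96 and 2.82 CPM in baicalein, but 86.8% of its 50-base words are shared with the read-through gene ZNF559-ZNF177, so its rise cannot be assigned to it alone. The falls in this cluster were small, with ZNF266 at -0.35. The 35 other protein-coding genes inside the span gave 12 higher and 17 lower (median -0.23).

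Cluster 3 (11483427 to 12640098) held changes of both signs among 24 tested genes, 9 higher and 6 lower. It had 6 higher and 9 lower with library totals, and 7 and 9 with the correction for GC content and length. ZNF844 went from 9.46 and 9.996 CPM to 18.998 and 20.7 CPM, 2.03-fold higher. ZNF878 went from 1.55 and 1.38 CPM to 0.256 and 0.322 CPM, 5.12-fold lower, and overlaps another gene model on its own strand. ZNF69 went from 6.73 and 6.34 CPM to 2.54 and 2.77 CPM. ZNF844 and ZNF878 are neighbours, so the highest and the lowest gene of this cluster lie side by side.

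Cluster 5 (34677639 to 34964049) had 2 genes higher, 2 lower and 1 that did not pass. ZNF181 went from 9.19 and 8.42 CPM to 18.4 and 17.7 CPM. ZNF792 went from 3.22 and 3.98 CPM to 0.933 and 0.940 CPM, 3.84-fold lower (log2 fold change -1.94, SE 0.18). The other gene called lower was ZNF30 at -0.28, and without baicalein 1 or without control 2 the number lower was 1.

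Cluster 6 (36182060 to 37817300) gave 16 higher and 5 lower of 27, with a median of 0.27. A run of 9 neighbours, ZNF568, ZNF420, ZNF585A, ZNF585B, ZNF383, ZNF875, ZNF527, ZNF569 and ZNF570, was higher without a break. The log2 fold changes in this run were 0.26 to 1.08. ZNF585A and ZNF585B share 17.3% and 24.9% of their 50-base words with other genes, most of them with each other. ZNF585B and ZNF383, and ZNF569 and ZNF570, overlap on opposite strands, so these calls may share reads. ZNF568, whose mouse counterpart represses a placental Igf2 transcript, went from 7.85 and 6.55 CPM to 15.5 and 14.96 CPM. ZNF146, which has zinc fingers and no KRAB domain, was at 76.5 and 73.7 CPM in control and 132 and 129 CPM in baicalein. ZNF540 and ZNF850 fell, with log2 fold changes of -1.39 and -1.24; ZNF540 overlaps ZFP30 on the other strand and ZNF571-AS1 on its own.

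Cluster 7 (43525497 to 45076588) gave 11 higher and 3 lower of 23, and 8 and 5 with library totals. ZNF222 went from 1.65 and 1.21 CPM to 5.17 and 5.56 CPM, a log2 fold change of 1.90 (SE 0.15), while its neighbours ZNF230 and ZNF223 did not pass. ZNF222 shares 16.8% of its 50-base words with other genes, most of them with a gene model that it overlaps on its own strand. The 7 neighbours from ZNF226 to ZNF229 were all higher, with log2 fold changes of 0.37 to 1.07. ZNF224, a KRAB repressor first described on the aldolase A promoter, was at 14.3 and 13.4 CPM in control and 16.6 and 15.9 CPM in baicalein (log2 fold change 0.23, adjusted p = 0.00899). Its adjusted p was 0.0731 with DESeq2, 0.341 with the correction for GC content and length, 0.138 with library totals and 0.102 without baicalein 1. ZNF296 was the lowest, at -0.69.

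Cluster 8 (51571298 to 53580269) held both the largest rise and the largest fall among the 235 tested genes. ZNF841 (ENSG00000197608, chr19:52064466-52095765) went from 15.4 and 16.7 CPM to 68.9 and 67.7 CPM, and its log2 fold change was 2.09 (SE 0.06; adjusted p = 6.15e-19). It shares exon sequence with ZNF432, which rose less, by 0.50, and it stands in a run of 6 genes called higher from ZNF614 to ZNF766. ZNF578 (ENSG00000258405, chr19:52453576-52512154) went from 188 and 211 counts in control to 29 and 10 counts in baicalein, a log2 fold change of -3.32 (SE 0.22). Without baicalein 1 the value was -3.96, and both baicalein libraries were far below the controls. ZNF578 overlaps another gene model on the other strand.

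Of the other genes of cluster 8, ZNF836 went from 4.87 and 5.42 CPM to 11.9 and 12.5 CPM. ZNF320 went from 24.4 and 22.5 CPM to 51.3 and 53.3 CPM, but shares 75.2% of its words with other genes, most of them with ZNF468. ZNF813 went from 10.03 and 8.83 CPM to 3.69 and 3.95 CPM. ZNF836 and ZNF813 share 13.2% and 11.3% of their words with other genes, and each overlaps a gene model on its own strand. ZNF350 (ZBRK1), a repressor that binds BRCA1, went from 7.71 and 7.68 CPM to 11.5 and 12.3 CPM. The imprinted gene ZNF331 went from 33.6 and 33.4 CPM to 24.1 and 23.7 CPM. In all, 18 genes were higher and 11 lower of 37, and 15 and 15 with the correction for GC content and length.

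Cluster 9 (55476332 to 58481230), the longest list with 57 tested genes, gave 31 higher and 8 lower, and 26 and 13 with library totals. The 9 tested genes from ZNF582 to ZNF543 were all higher, with log2 fold changes of 0.35 to 1.26. ZNF471 and ZNF835, absent from the deposited counts, lie among them, and a cluster gap of 0.5 Mb divides the run after ZNF835. ZNF667 had the largest rise, from 5.57 and 4.51 CPM to 12.03 and 12.06 CPM; ZNF667-AS1 overlaps it on the other strand, and whether counting used strand was not stated in any source used here. ZNF773 went from 7.49 and 7.72 CPM to 16.3 and 16.7 CPM. ZNF784 had the largest fall, from 4.51 and 4.91 CPM to 2.01 and 1.93 CPM.

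Also in cluster 9, ZNF304, ZNF154 and ZNF671 did not pass. ZNF154 and ZNF671, both known for promoter methylation in tumours, were at 0.593 and 0.681 CPM and at 3.68 and 3.76 CPM in control. In baicalein they were at 0.768 and 0.537 CPM and at 2.87 and 3.33 CPM, with adjusted p = 0.848 and 0.067. ZNF671 passed with library totals (adjusted p = 0.0149) and without baicalein 2 (adjusted p = 0.0477). ZNF304, a KRAB repressor, had a log2 fold change of 0.04 (adjusted p = 0.648).

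Of the 10 tested scattered genes, 5 were higher and 3 lower. ZNF333 went from 6.84 and 6.51 CPM to 14.6 CPM in both baicalein libraries, a log2 fold change of 1.13. ZNF473, which codes for a factor of histone pre-mRNA processing, had a log2 fold change of 0.16 (adjusted p = 0.0296) and did not pass in 6 of the alternatives, with adjusted p-values up to 0.579.

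Per kb of exon, the 5 zinc finger genes with the most counts included ZNF552, ZNF146, ZNF787 and ZNF580. On that scale ZNF552 went from 30.3 CPM per kb in control to 17.6 in baicalein, ZNF146 from 18.1 to 31.4 and ZNF787 from 10.4 to 13.6. ZNF552 thus changed places with ZNF146 at the top. The log2 fold changes were -0.78 for ZNF552, which overlaps ZNF586 on the other strand, 0.79 for ZNF146 and 0.39 for ZNF787, the last of which was 0.93 with the correction for GC content and length. ZNF580, which overlaps ZNF581 on its own strand, had a log2 fold change of 0.59. ZNF552 and ZNF580 share 14.2% and 11.4% of their 50-base words with other genes.

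The median difference in log2 fold change between 216 pairs of neighbours, counted among the tested zinc finger genes of a cluster, was 0.50, against 0.56 over all pairs within a cluster and 0.65 over all pairs. Of the neighbour pairs, 89 were called the same way and 37 in opposite ways. Cluster membership covered 19.7% of the variance of the log2 fold changes over genes. Gene level also moved with the calls: the 78 genes with the lowest mean CPM gave 26 higher and 26 lower, and the 78 with the highest gave 44 higher and 15 lower, and the part of level in the split was not tested.

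The machinery that KRAB zinc finger proteins recruit was read from a list of 28 genes, of which 10 were higher and 17 lower, with a median log2 fold change of -0.29. Against 37.4% and 37.6% of all tested genes, that is 35.7% and 60.7%. TRIM28, the direct partner of the KRAB domain, was at 253.9 and 286.5 CPM in control and 233.0 and 231.4 CPM in baicalein, a log2 fold change of -0.22. With the correction for GC content and length it was 0.16 (adjusted p = 0.000161), so its direction depends on that correction. The H3K9 methyltransferase gene SETDB1 was higher, from 57.3 and 60.0 CPM to 74.1 and 73.9 CPM (0.34).

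Of the other H3K9 methyltransferase genes on the list, SUV39H1, SUV39H2 and EHMT2 fell, and EHMT1 did not pass (log2 fold change 0.07, adjusted p = 0.176). SUV39H1 went from 42.4 and 45.1 CPM to 16.04 and 15.3 CPM, and its log2 fold change was -1.48 (SE 0.06; adjusted p = 8.71e-16). SUV39H2 fell by 1.09 on the log2 scale, EHMT2 by 0.84, the genes of the HP1 proteins that bind the mark, CBX5 by 1.09 and CBX3 by 0.84, and CBX1 by 0.32. Of the NuRD members, which remodel and deacetylate nucleosomes, HDAC1 had -0.70, CHD4 -0.66, CHD3 -0.48 and HDAC2 -0.35. In each of these genes both baicalein libraries lay below both controls. The 2 groups did not overlap in 86.9% of all tested genes, in either direction.

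The HUSH complex, which spreads H3K9 methylation over integrated elements, did not move as one. Its genes TASOR and PPHLN1 fell (-0.58 and -0.19), and MPHOSPH8 rose (0.24), as did MORC2, which works with it (0.53). MORC3 rose by 0.24. ZNF274, itself a zinc finger gene of cluster 9 that brings SETDB1 to zinc finger genes, rose from 40.8 and 42.5 CPM to 64.3 and 63.0 CPM (0.61). The TRIM28 relative TRIM24 (0.75) and the corepressor NCOR1 (0.56) rose too, and TRIM33 had 0.18, was at -0.0072 with the correction and did not pass with library totals (adjusted p = 0.183). ATF7IP (-0.29), PIAS1 (-0.30), DAXX (-0.38) and SUMO2 (-0.62) fell, while ATRX (0.13) and SMARCAD1 (0.12) were called higher. ATRX did not pass with library totals (adjusted p = 0.567) or without baicalein 1 or 2 (0.115 and 0.0747), and with the correction it was lower (-0.10, adjusted p = 0.0117). SMARCAD1 did not pass in 7 alternatives, with adjusted p-values of 0.0602 to 0.88.

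**Figure D5:**
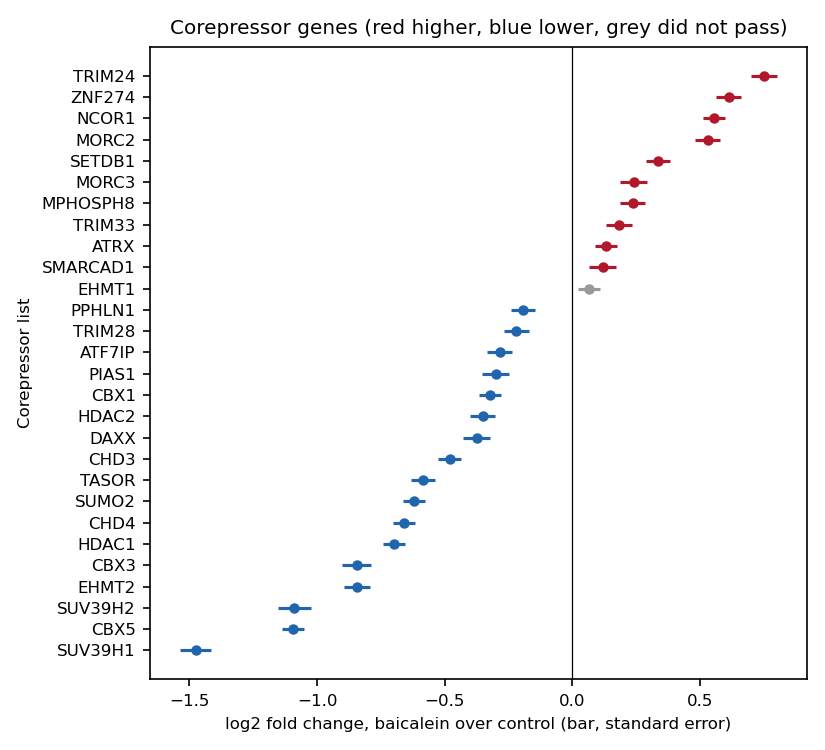
Log2 fold change (baicalein over control, horizontal axis) with its standard error for the 28 genes of the KRAB corepressor list, sorted (red higher, blue lower, grey did not pass). SUV39H1 lies lowest at -1.48 and TRIM24 highest at 0.75, with 17 genes on the blue side and 10 on the red.

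Other zinc finger genes of chromosome 19 that the naming leaves out (ZFP, ZSCAN and ZBTB genes) were few: 12 were tested, 4 higher and 3 lower, and 2 higher and 5 lower with library totals. ZFP28, which lies in cluster 9, went from 7.90 and 6.53 CPM to 21.1 and 21.3 CPM, a log2 fold change of 1.55. ZBTB7A, outside the clusters, went from 103.4 and 114.7 CPM to 68.1 and 68.2 CPM. ZFP28 and ZBTB7A were named after their values were seen.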

How the data were processed

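Poly(A) RNA was measured in 4 T47D libraries, 2 control and 2 baicalein. The authors deposited whole-number read counts per gene, not scaled, in a table of 20515 rows. Per the submitters' processing notes the tools were RSEM 1.3.3, STAR 2.7.8a, cutadapt 2.3, DESeq2 1.34 and FastQC 0.11.8, on build GRCh38. Strand use, the annotation release and whether the values are rounded RSEM estimates were not stated in any source used here. If they are such estimates, genes that share reads carry assignment error. Columns were matched by sample description and grouped by title.

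Tests on the counts used edgeR 4.0.16 (R 4.3.3) with TMM scaling, a robust quasi-likelihood fit and F test, no covariates and the filterByExpr defaults (a count of 10, a total of 15), which kept 18369 genes. Adjusted p-values are Benjamini-Hochberg over these, with a threshold of 0.05. The fit was tested on simulated data with known changes. A floor of 3 counts is 0.0549 to 0.0805 CPM, for counting error only, since no molecular identifiers mark single molecules. Gene types, positions and exon overlaps came from GENCODE 29 and symbols from a names table; shared sequence was read as identical 50-base words of transcripts. Alternatives were DESeq2 size factors or library totals, no filter or 50 counts in 2 libraries, DESeq2 1.42.0, the replicate number as a block, a trend on GC content and exon length taken out per library (17867 genes), each library left out, a cluster gap of 0.5 Mb and symbols without a trailing letter.

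The genes, lists and tests were chosen with earlier results of these data known. Named genes are the 12 largest rises and 12 largest falls among called genes with non-overlapping groups and a mean log2 CPM of 0 or more, the highest and lowest of each cluster, the 5 most abundant per kb, a set with known roles and the corepressor list. Others were named after their values were seen. The GC limits of 42% and 46%, the 10% limit on shared words and the genes whose windows are printed were also picked with values known. Planned protein features (finger number, KRAB box, identity) were not analysed here. The results of 2 genes planned for the corepressor list are not reported here.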

Additional observations from a re-analysis of the deposited data

How the results depend on the processing

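The direction of cluster 4 held in every alternative run: its lower calls were 22 or 23 and its median log2 fold change lay between -0.68 and -0.53. Its higher calls ranged from 3 to 6 when 1 library was left out. The zinc finger genes gave 93 to 112 higher and 54 to 76 lower over the alternatives (93 and 54 with DESeq2, 93 and 76 with library totals). Library totals moved the median of all genes by -0.10. With them, cluster 7 had 5 lower and cluster 9 had 13, and the other zinc finger genes of chromosome 19 had 2 higher and 5 lower. That group had 2 higher with DESeq2 and 5 lower with the correction for GC content and length. Cluster 5 had 1 lower with the 50-count filter and with DESeq2, and 1 to 2 lower with a library left out. Other protein-coding genes inside the spans ranged from 20 to 35 higher with a library left out. The cause of these moves was not tested.

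Medians near 0 changed sign. That of cluster 3 was -0.054 with DESeq2, -0.065 with library totals and -0.058 with no filter. That of cluster 8 was -0.022 with the correction and -0.014 with library totals, and that of the scattered genes -0.0073 with library totals. That of the other zinc finger genes was -0.039 with the 50-count filter, -0.080 with library totals and -0.018 to 0.062 with a library left out, and that of other genes inside the spans 0.11 with the correction. Among single genes, ZNF304 was at -0.062 with the correction, -0.063 with library totals and -0.043 to 0.15 with a library left out. ZNF154 was at -0.077, -0.037 and -0.24 to 0.28 under the same settings. With the correction TRIM28 was at 0.16, ATRX at -0.095, TRIM33 at -0.0072 and EHMT1 at -0.015, and with library totals EHMT1 was at -0.038. Without control 2, EHMT1 was at 0.11.

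Whether the replicate numbers pair the samples is not said in the labels. The deviations of same-numbered libraries from their group means correlated at 0.0136. With 2 libraries a group the second pair mirrors the first, so this is a single comparison. It cannot decide whether the samples were paired. The replicate block gave 112 higher and 65 lower, and SMARCAD1 was no longer called (adjusted p = 0.0602). A gap of 0.5 Mb gave 10 clusters and left cluster 4 as it was, and symbols without a trailing letter gave 107 higher and 62 lower. At 2 libraries a group, small changes in genes of few counts are measured with wide errors.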
